A study of Mus musculus with 4 samples.

Results

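Accessible sites in gene deserts are described here, in embryoid bodies with and without a point mutation of the chromatin architecture factor CTCF. Peaks of 4 ATAC-seq libraries were merged into 80380 regions wherever they overlapped by at least 1 bp, and 78837 of these lie on autosomes. A region was a member where its strongest summit was over 250 kb from the transcription start site (TSS) of every protein-coding gene, and 2880 regions, 3.65% of the autosomal ones, met this rule. The members lie in 658 of the 891 TSS-to-TSS gaps that are wide enough to hold one. Genotype played no part in the choice of members.

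E14Tg2A mouse embryonic stem cells were grown on feeder fibroblasts with LIF and 2 inhibitors, and were then differentiated into embryoid bodies by hanging drop in serum without LIF. Nuclei were taken on day 4. WT cells carry the unchanged protein, and in CTCF-K20R cells lysine 20 of CTCF was replaced by arginine with CRISPR/Cas9 in the same line. The groups were 2 WT and 2 K20R libraries. How many edited clones were used is not given in the sources used here, so a property of a clone and an effect of the mutation cannot be told apart.

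CTCF is a zinc-finger protein that stops the extrusion of chromatin loops by cohesin at its binding sites, and thereby helps to fold distant elements and promoters into the same domain. Gene deserts are long stretches without protein-coding starts. Many flank genes of developmental regulators and hold long-range enhancers, others are sparse in regulatory sequence, and they are rich in copies of transposable elements. ATAC-seq marks open chromatin by the cuts of the Tn5 transposase, and it marks promoters, enhancers and CTCF sites alike.

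The 4 lists hold 59783 and 66703 peaks in WT 1 and WT 2, and 51823 and 55832 peaks in K20R 1 and K20R 2. Reads were not analysed here, so the depth behind a peak is unknown. The peaks of a list are numbered with gaps, and 51.7%, 50.5%, 58.6% and 60.8% of the numbers are present, so called peaks were taken out before deposit and a missing peak is not proof of closed chromatin. Promoters of all 4 pluripotency, 4 mesoderm, 4 neuroectoderm and 4 fibroblast markers had a peak in every library, and of the endoderm markers 3 of 4 did, without Afp, so promoter peaks do not separate these cell types. The strength of a peak is given below as its percentile by p-value within its own list, where 100 is the strongest peak.

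The label of a desert was checked against the annotation. Of the members, 632 (21.9%) lie inside the body of a protein-coding gene, far from its start, another 411 (14.3%) inside non-coding genes only, and 1837 (63.8%) outside any gene. In all, 185 coding genes hold at least 1 member. Ptprn2, which encodes a protein of secretory granules, holds 21, and Rad51b and Lrmda hold 17 each. A non-coding TSS lies within 1 kb of 164 members (5.69%), and only 124 members are over 250 kb from the TSS of any annotated gene. Over the 250 kb limit the WT and K20R counts were alike on either side: the 183 members within 10 kb inside it held 32 regions with peaks in WT alone and 6 in K20R alone, and the 201 regions within 10 kb outside it held 35 and 7.

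Sequences of members that the results turn on are given first, in mm10 coordinates. The following 101 bases are centred on the strongest summit. The first is the strongest member that had peaks in both WT libraries and in neither K20R library, between the Notch ligand gene Jag1 and Btbd3, and the second is another such member, inside Wwox. Neither holds one of the motifs searched.
Jag1 to Btbd3, chr2:137664996-137665096: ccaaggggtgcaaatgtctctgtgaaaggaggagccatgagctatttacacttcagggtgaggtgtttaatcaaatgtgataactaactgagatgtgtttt
Wwox, chr8:114937048-114937148: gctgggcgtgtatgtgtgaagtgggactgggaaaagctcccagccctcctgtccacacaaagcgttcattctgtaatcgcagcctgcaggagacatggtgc

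Next are the 3 strongest common members with the CTCF consensus inside the 101 bases, shown since CTCF is the mutated protein. Capitals mark the match, which may lie on either strand.
Bckdhb to Gm11114, chr9:84253388-84253488: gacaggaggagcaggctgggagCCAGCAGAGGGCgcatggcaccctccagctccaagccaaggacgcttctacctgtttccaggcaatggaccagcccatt
Vrk2 to Gm6685, chr11:27753767-27753867: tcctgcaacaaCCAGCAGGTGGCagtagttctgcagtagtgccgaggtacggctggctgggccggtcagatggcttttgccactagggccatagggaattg
Slc8a1 to Pkdcc, chr17:82857706-82857806: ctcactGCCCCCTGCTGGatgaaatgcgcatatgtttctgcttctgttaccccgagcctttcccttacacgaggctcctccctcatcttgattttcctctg

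Last are members whose summits lie in copies of a few interspersed sequences, here called family 1, family 2 and family 3 since repeat classes were not used here. They are shown because copies of 8 such families are 24.2% of the members with peaks in K20R alone and 6.67% of all members. Each run is 70 bases aligned on a shared word and turned to the same strand, and capitals mark 10-base words that at least 33.3% of the family's members share.
Family 1, Gucy1a2 to Aasdhppt, chr9:3988189-3988258, minus strand: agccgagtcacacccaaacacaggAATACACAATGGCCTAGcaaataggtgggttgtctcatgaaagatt
Family 1, Epm2a to Utrn, chr10:11801849-11801918, plus strand: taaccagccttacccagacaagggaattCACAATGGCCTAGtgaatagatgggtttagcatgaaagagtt
Family 1, Grik2, chr10:49417410-49417479, plus strand: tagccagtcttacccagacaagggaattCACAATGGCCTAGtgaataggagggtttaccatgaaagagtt
Family 2, Nmbr to Cited2, chr10:15791619-15791688, minus strand: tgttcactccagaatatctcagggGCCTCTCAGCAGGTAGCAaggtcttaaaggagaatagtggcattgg
Family 2, Gnai1 to Magi2, chr5:18688660-18688729, minus strand: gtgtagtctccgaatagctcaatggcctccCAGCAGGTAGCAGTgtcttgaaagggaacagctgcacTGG
Family 3, Kcnv1 to Csmd3, chr15:47562414-47562483, plus strand: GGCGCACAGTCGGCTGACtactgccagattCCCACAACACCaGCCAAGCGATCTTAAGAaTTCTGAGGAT
Family 3, Rgs17 to Oprm1, chr10:6349328-6349397, plus strand: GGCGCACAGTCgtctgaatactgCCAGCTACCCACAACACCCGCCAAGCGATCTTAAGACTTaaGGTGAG
Family 3, Mpdz to Nfib, chr4:81809342-81809411, plus strand: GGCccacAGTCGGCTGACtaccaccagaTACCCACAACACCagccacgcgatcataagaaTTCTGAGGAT

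Accessible sites were sparse in deserts. The sequence over 250 kb from every coding TSS covers 537.9 Mb, 22.5% of the autosomes, and held 5.35 regions per Mb against 40.9 per Mb elsewhere, a 7.64-fold lower density. The median member was 364 kb from the nearest coding TSS, 698 members were over 500 kb and 125 over 1 Mb away, and the farthest was at 2410 kb. Its nearest accessible neighbour was a median of 24.6 kb away, against 8.14 kb for regions 50 to 250 kb from a TSS and 5.84 kb for all autosomal regions. Members were unevenly spread over the gaps. No member lay in 233 gaps, 4 of them among the 165 with at least 1 Mb of eligible sequence, while 72 gaps with 10 or more members held 974 of the members (33.8%).

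Peaks in deserts were fewer in K20R. WT 1 and WT 2 had 1897 and 2377 peaks in members and K20R 1 and K20R 2 had 1404 and 1688, so that the genotypes did not overlap. The means were 2137 ± 339 (SD, n = 2) and 1546 ± 201 (SD, n = 2), and the K20R mean fell by 27.7%. An exact two-sided permutation test of the log2 counts gave p = 0.333, which is the smallest that 2 against 2 libraries allow. Some members hold several peaks of a list, and 1870, 2356, 1375 and 1680 members had at least 1. Whole lists were also shorter in K20R, with 58646 and 65331 autosomal peaks in WT and 50815 and 54622 in K20R. As a share of autosomal peaks, desert peaks were 3.23% and 3.64% for WT against 2.76% and 3.09% for K20R, a difference of 0.51 percentage points (exact permutation p = 0.333). Regions 50 to 250 kb from a TSS held 19.6% and 20.8% of the WT and 17.5% and 18.2% of the K20R peaks. Restricted to a −log10 q of 10 or more, members had 630 and 1189 peaks for WT against 502 and 922 for K20R, and the genotypes overlapped (exact permutation p = 0.667). The same number of peaks taken from the strong end of every list reduced the difference of the log2 counts from 0.46 to 0.14.

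Of the 2880 members, 949 (33.0%) held a peak in every library, here called common. A peak in both WT libraries and in neither K20R library was found in 453, called WT-restricted, which is 15.7% (95% Wilson interval 14.4% to 17.1%) against a background of 10.4% of all autosomal regions. A peak in both K20R libraries alone was found in 91, called K20R-restricted, which is 3.16% (2.58% to 3.86%) against a background of 3.10%. The remaining 1387 members had other combinations and are called mixed, of which the most frequent was a peak in WT 2 alone, in 433. Intervals here cover counting error only.

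WT-restricted members thus outnumbered K20R-restricted ones by a log2 ratio of 2.32. The ratio was 2.11 in regions 50 to 250 kb from a TSS, where 15.2% were WT-restricted, and 1.75 over all autosomal regions. Members were on the whole weak peaks, and when the other sets were weighted to the members' strengths, the WT-restricted share was 15.4% at 50 to 250 kb and 12.03% over all regions, so the deserts stood near the other distal regions. Leaving out WT 1 gave 888 WT-restricted and 122 K20R-restricted members, leaving out WT 2 611 and 229, leaving out K20R 1 507 and 246, and leaving out K20R 2 646 and 154, where a single library then stands for its genotype. When lists were cut to equal length by strength, 308 and 184 were found. Where no peak number was missing at the absent peak in both lists of the other genotype, 46 of 453 WT-restricted and 2 of 91 K20R-restricted members remained. The same rule left 514 of 2602 and 77 of 603 in regions 50 to 250 kb from a TSS. Over all autosomal regions it left 2370 of 8218 and 590 of 2445. A smaller part of either class was thus left in deserts than in these sets.

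The share of WT-restricted regions followed the distance to the nearest coding TSS. It was 1.82% within 1 kb of a TSS, 10.8% from 1 to 10 kb, 11.3% from 10 to 50 kb, 14.3% from 50 to 100 kb and 16.3% from 100 to 250 kb. Within the deserts it was 16.4% up to 500 kb, 14.8% up to 1 Mb and 8.0% (10 of 125) beyond. K20R-restricted regions made up 2.93%, 3.49% and 5.6% of the members in these last steps. Members beyond 1 Mb therefore had a log2 ratio of 0.51, against 2.48 for those at 250 to 500 kb, and their interval is wide, as the plot of restricted regions by distance shows.

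**Figure D1:**
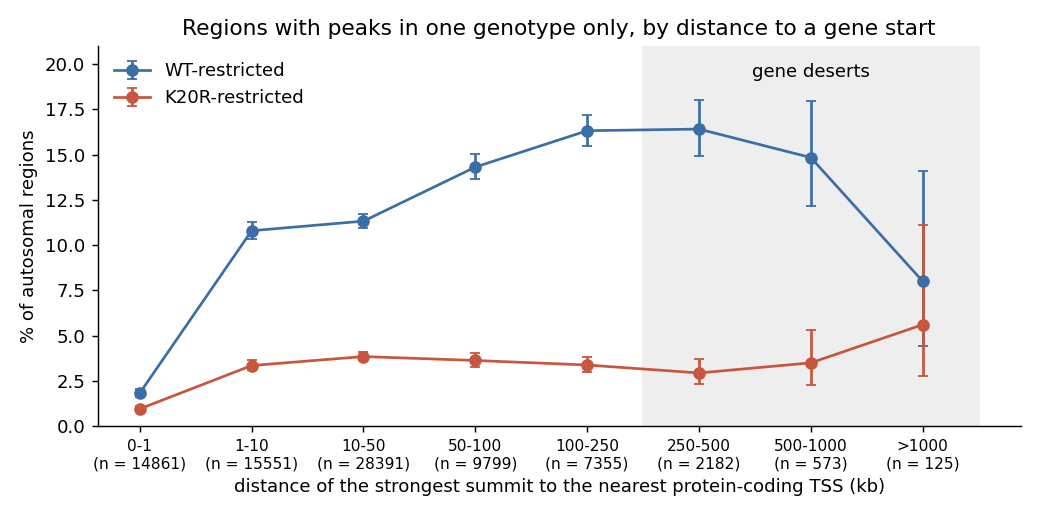
Share of autosomal regions that had peaks in both libraries of WT only (blue) or of K20R only (red), in steps of the distance in kb from the strongest summit to the nearest protein-coding TSS, with 95% Wilson intervals as bars and the number of regions under each step. The shaded steps are the gene deserts, where the WT-restricted share was 16.4%, 14.8% and 8.0% and the K20R-restricted share 2.93%, 3.49% and 5.6%.

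Members beyond 1 Mb also differed in sequence. The 201 bases around the summit were scored for repeat-masked sequence as marked in lower case in the reference, and a member with over 50% of masked bases is called a repeat member. This split and the sequence families below were chosen after the data had been seen. Repeat members were 252 of 2880 (8.75%), against 5.19% of regions 50 to 250 kb from a TSS and 5.41% of all autosomal regions. Their share was 6.55% at 250 to 500 kb, 12.4% at 500 kb to 1 Mb and 30.4% (38 of 125) beyond 1 Mb. Without repeat members, 17.1%, 16.9% and 11.5% of the members in these steps were WT-restricted and 2.35%, 2.39% and 3.45% K20R-restricted, so the fall in the last step was smaller than over all members.

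Repeat members and other members differed in opposite directions on average between the genotypes. Of the 252 repeat members, 157 and 190 had a peak in WT 1 and WT 2, and 187 and 219 in K20R 1 and K20R 2, so K20R was higher on average with overlapping values (exact permutation p = 0.667). Of the 2628 other members, 1713 and 2166 had a peak in WT and 1188 and 1461 in K20R, with no overlap (p = 0.333, the smallest the exact permutation test allows). Repeat members were 8.40% and 8.06% of the members with a peak in WT and 13.6% and 13.04% in K20R. This share was 5.09 percentage points higher in K20R, with an SD of 0.234 points in WT and 0.399 in K20R, and the exact permutation p was again 0.333. Over all autosomal regions the share was 4.02% and 4.44% for WT against 5.18% and 5.70% for K20R.

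**Figure D2:**
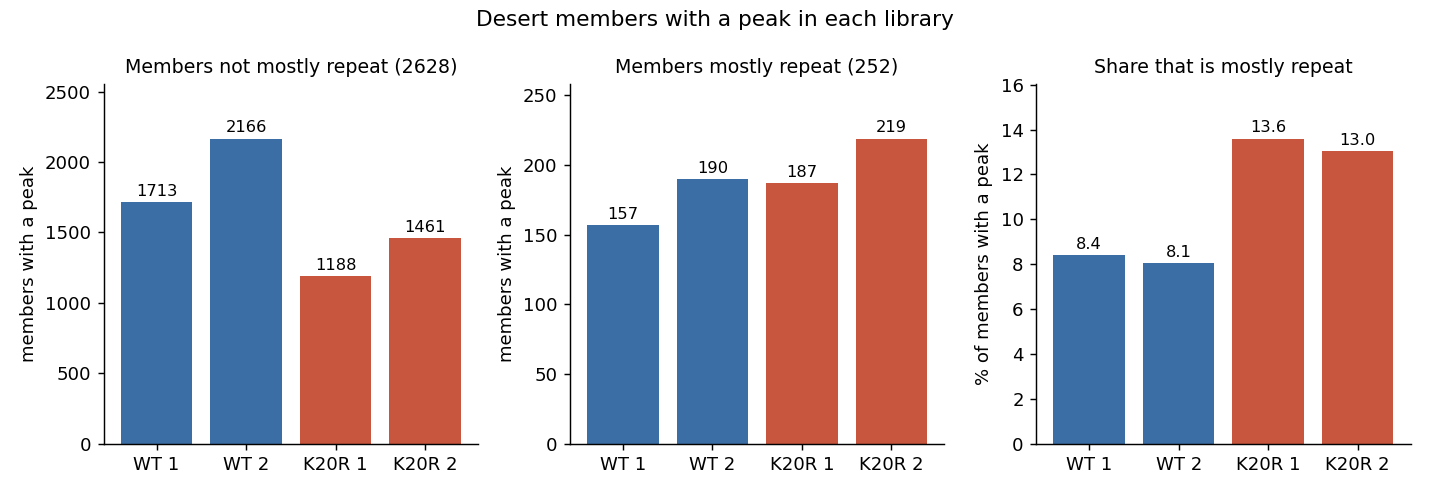
Number of members with a peak in each of the 4 libraries, for members whose 201-bp summit window is at most 50% repeat-masked (left) and over 50% repeat-masked (middle), and the latter as a percent of all members with a peak (right). WT libraries are blue and K20R libraries red, 1 bar a library from 0. Other members were fewer in both K20R libraries (1188 and 1461 against 1713 and 2166), and the share of repeat members was higher in both (13.6% and 13.04% against 8.40% and 8.06%).

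Presence divided in the same way. Repeat members included 10 WT-restricted and 28 K20R-restricted ones, for a log2 ratio of −1.49, and among the other members 443 and 63, a ratio of 2.81. Repeat members were therefore 30.8% of the K20R-restricted and 2.21% of the WT-restricted members. The shares changed in steps with the masked content. Of 1268 members with no masked base 18.5% were WT-restricted and 1.97% K20R-restricted, of 132 members with over 50% to 75% of masked bases 5.30% and 3.79%, and of 120 members above 75% they were 2.50% and 19.2%. Over all 4263 repeat regions of the autosomes 220 were WT-restricted and 361 K20R-restricted, which gives a log2 ratio of −0.71, so the pattern was not limited to deserts.

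Ranks of the 949 common members were compared on their own lists first. Their median percentiles were 53.2 and 57.4 for WT against 48.5 and 53.6 for K20R, a difference of 4.23 between the means of overlapping groups (exact permutation p = 0.667). In 325 members both values of K20R were below those of WT (34.2%, background 34.8%), and in 231 they were above (24.3%, background 18.8%). To take out the different lengths of the lists, percentiles were re-ranked among the 37692 autosomal regions with a peak in every list. On this scale both K20R libraries were below WT in 283 members (29.8%, background 25.5%) and above in 313 (33.0%, background 29.4%). The medians were then 34.3 and 34.4 for WT against 33.9 and 35.5 for K20R, and the direction of the difference turned.

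Repeat members and other members differed here too. In 90 of 126 common repeat members (71.4%) both re-ranked K20R values lay above both WT values, and in 11 (8.73%) below. For the 823 other common members the counts were 223 (27.1%) above and 272 (33.0%) below. On their own lists, common repeat members had median percentiles of 47.9 and 57.4 for WT against 66.1 and 69.3 for K20R, a difference of 15.0 without overlap (exact permutation p = 0.333). Among the 49 of them with a −log10 q of 10 or more in every list the difference was 6.18, and 35 were higher and 5 lower. Other common members had 53.2 and 57.7 for WT against 46.2 and 50.8 for K20R, also without overlap and in the opposite direction. Regions 50 to 250 kb from a TSS gave 51.1% above and 19.8% below for 313 common repeat regions, and all autosomes 48.5% and 17.2% for 1427.

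**Figure D3:**
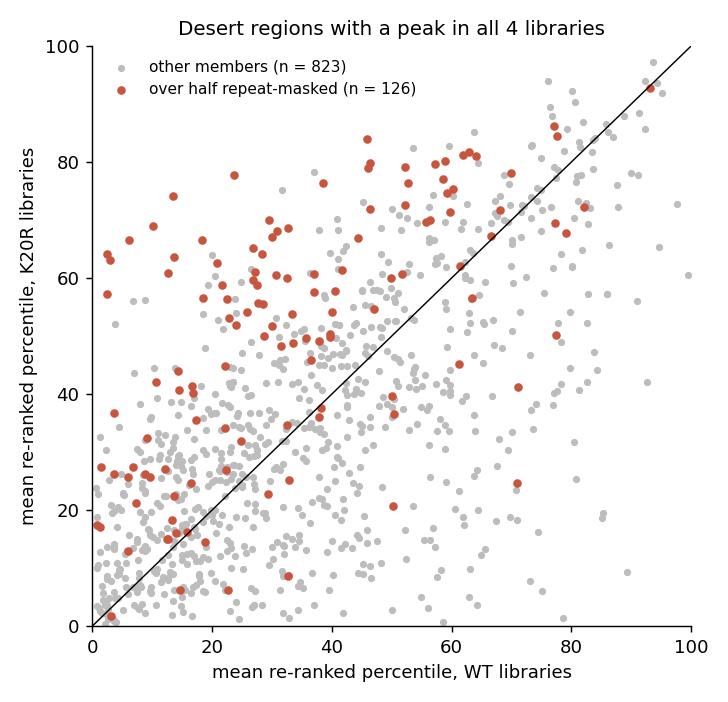
Mean re-ranked percentile over the 2 WT libraries (x axis) and over the 2 K20R libraries (y axis) for each of the 949 members with a peak in all 4 libraries, with 100 as the strongest peak. The 126 repeat members (red) lie mostly above the line of equal rank, with 90 of them higher in both K20R libraries, and the 823 other members (grey) lie on both sides.

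The difference between repeat and other members held over most of the range of strength. Among common members in the lowest step of the mean WT re-ranked percentile, up to 20, 74.4% of 39 repeat members and 45.1% of 246 other members were higher in both K20R libraries. From 40 to 60 the shares were 79.2% of 24 and 19.2% of 193, and from 60 to 80 they were 41.2% of 17 and 12.7% of 110. Above 80 they were 0 of 2 and 5.66% of 53. The steps were cut on WT values that also enter the comparison, so the change from step to step carries no weight. Reads from repeats can map to several places, so the 32 bases at each summit were counted in the genome. They occurred at 1 place for 97.6% of all members and for 195 repeat members (77.4%). Among the 98 common members of those 195, 69 (70.4%) were higher and 7 (7.14%) lower in both K20R libraries. Only exact matches on the autosomes and X were counted, so nearly identical copies are not covered. Whether mapping or read length took part was not tested.

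Repeat members were often copies of the same sequence. The summit windows of all autosomal regions were compared with each other by BLAST, and windows joined by at least 80% identity over at least 120 bases were put in a family. The 8 families with 7 or more members hold 192 members (6.67%), of which 5 were WT-restricted and 22 K20R-restricted. Of their 117 common members 87 (74.4%, background 29.4%) were higher and 12 (10.3%, background 25.5%) lower in both K20R libraries. The 83 repeat members in none of these families included 24 common ones, of which 12 were higher and 3 lower, and their medians of 41.7 and 48.7 for WT against 45.3 and 49.2 for K20R overlapped (exact permutation p = 0.667). Family copies were 0.0269% of regions within 1 kb of a TSS, and 0.984%, 1.40%, 1.45% and 2.16% in the steps out to 250 kb. In the 3 desert steps they were 4.26%, 10.99% and 28.8% of the members. Families were kept by their number of desert members, so a larger share in deserts was partly fixed by that choice.

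Family 1 was the largest in deserts, with 76 members in 63 gaps on 18 chromosomes, out of 272 regions in all. In the printed runs the shared word lies at the same place, and it was found in 35 of the 76 members, within 50 bases of the summit in 24. The SOX word CCATTGT, searched on both strands, was within 100 bp of the summit in 38 of the 76, against 3.00% of all autosomal regions, and the FOX word TGTTTAC in 18 of them, against 3.29%. On the other strand the SOX word reads ACAATGG, which lies inside the capitals of the printed family 1 runs. Copies of a family share letters, so their matches are not independent sites. A match is a description of letters, not of bound protein. A peak was present in 57 and 66 of the members in WT and in 68 and 74 in K20R. Of the 52 common members, 39 (75%) were higher and 6 lower in both K20R libraries, with median percentiles of 53.2 and 61.0 for WT against 71.7 and 73.5 for K20R. It was not uniform, since 2 members were WT-restricted and 6 K20R-restricted. Over its 272 autosomal regions, 110 of 187 common ones (58.8%) were higher and 43 (23.0%) lower in both K20R libraries. Of the 272, 8 were WT-restricted and 20 K20R-restricted.

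Family 2 had 65 members of 321 regions. Its shared word was found in 42 of the 65, and the E-box CAGCTG was in 26 of them, against 16.2% of all autosomal regions. No member was WT-restricted and 6 were K20R-restricted. Peaks were present in 45 and 52 of the members in WT and in 59 and 64 in K20R. Of 40 common members 31 (77.5%) were higher and 3 lower in both K20R libraries, and their medians were 47.6 and 58.2 for WT against 68.3 and 69.3 for K20R. Over its 321 autosomal regions, 125 of 180 common ones (69.4%) were higher and 16 (8.89%) lower in both K20R libraries. Of the 321, 6 were WT-restricted and 48 K20R-restricted.

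Family 3 was small, and 54.5% of its members were K20R-restricted, the highest share among the 8 families. All 11 members had a peak in K20R 1 and in K20R 2, but only 4 in WT 1 and 5 in WT 2, and 6 were K20R-restricted. The 4 common members had median percentiles of 11.4 and 17.5 for WT against 67.0 and 73.0 for K20R. Across the autosomes the family counts 54 regions, and there too all 22 common ones were higher in both K20R libraries, 21 were K20R-restricted and none was WT-restricted. The plot of the 3 families shows each member's percentile in each library.

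**Figure D4:**
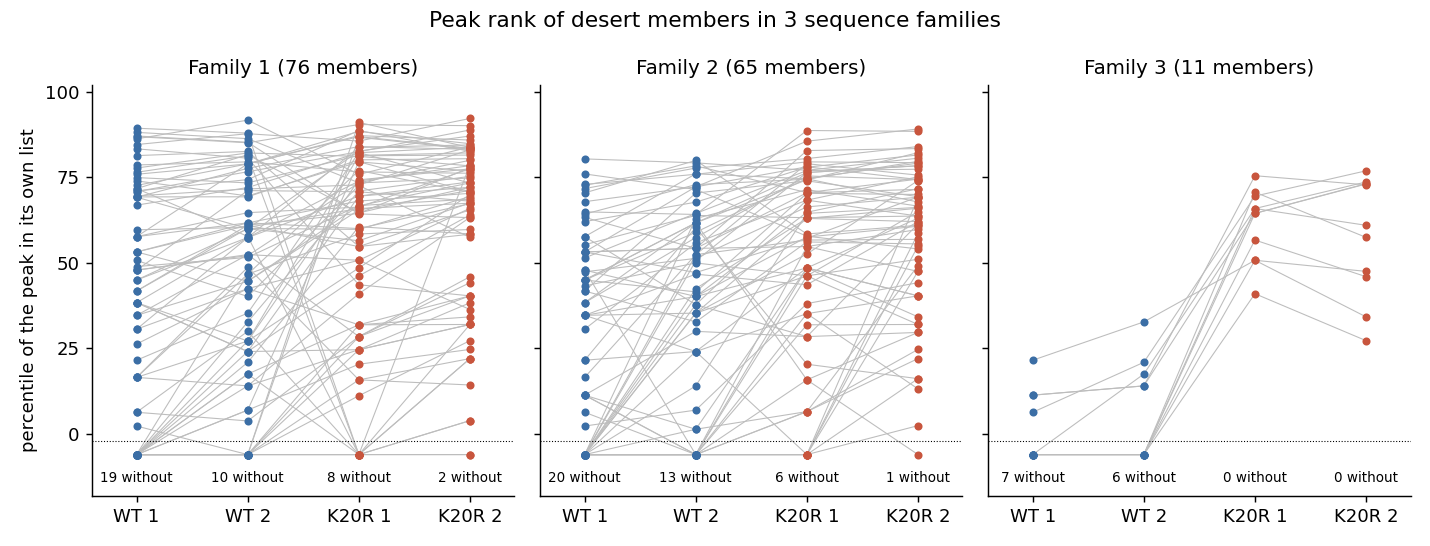
Percentile of the peak in its own list (y axis, 100 is the strongest) for each member of family 1, family 2 and family 3 in the 4 libraries, WT in blue and K20R in red, with a grey line for each member. Points under the dotted line are members without a peak in that library, counted at the bottom. In family 3 no WT point is above the K20R points of the same member, and 7 and 6 of 11 members had no WT peak.

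No member of the 3 families held the exact CTCF consensus. With 1 mismatch it was found in 7 of the 76 members of family 1, 14 of the 65 of family 2 and none of the 11 of family 3. The share was 16.3% of all repeat members, 21.4% of all members and 19.6% of all autosomal regions. Family 2 thus stood near the share over all members, and family 1 below it.

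The remaining families were smaller. Family 4 had 10 members, of which 2 were K20R-restricted and 5 of the 6 common ones higher in both K20R libraries. Family 5 had 9 members, of which 1 was WT-restricted and none K20R-restricted, with 3 of 6 common ones higher and 1 lower. Family 6 had 7 members, of which 1 was WT-restricted and 1 K20R-restricted, with 3 of 3 common ones higher. Family 7, whose summits were mostly unmasked, had 7 members, of which 1 was WT-restricted and none K20R-restricted, with 2 of 5 common ones higher and 2 lower. Family 8 had 7 members, of which 1 was K20R-restricted and none WT-restricted, and 1 common one, in which the genotypes overlapped. The share of higher members thus differed between families, over small counts. Over all autosomal common regions 29.4% were higher and 25.5% lower.

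Of the strongest common members, 3 lie at starts of non-coding genes. Those on chromosome 12 at chr12:20815425-20816259 and chr12:19287953-19289434 and on chromosome 1 at chr1:7397106-7398695 lie within 0.14, 0.114 and 0.29 kb of the TSS of the non-coding genes 1700030C10Rik, Gm5953 and Gm26901. Their percentiles were 96.0, 96.4, 97.0 and 98.9 for 1700030C10Rik in the order WT 1, WT 2, K20R 1, K20R 2, 97.5, 96.7, 97.1 and 91.6 for Gm5953, and 96.0, 97.1, 94.1 and 96.7 for Gm26901. The first was higher in both K20R libraries by 1.78 points on average, and in the other 2 the genotypes overlapped.

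The strongest WT-restricted members lay near genes of several kinds. The site between Jag1 and Btbd3 (chr2:137664905-137665726), in the non-coding gene Gm14064, had percentiles of 88.6 and 94.1 in WT and no peak in K20R. Its summit had a fold of 12.3 and 16.1 over the local background in the WT lists. The sites between Tmem161b and Ccnh (chr13:84569322-84569880), and inside Wwox (chr8:114936577-114937659), stood at 81.7 and 91.4 and at 80.9 and 86.9. In K20R no peak number was missing at the Wwox site, so a called peak there cannot have been taken out, but at the other 4 sites numbers were missing in at least 1 K20R list. The site between Il7, which encodes a lymphocyte cytokine, and Stmn2 (chr3:8000124-8001593) stood at 89.4 and 87.9, and it is 1 of the 2 WT-restricted copies of family 1. The last of the 5 lay between Rgmb, which encodes a BMP co-receptor, and Zfp960 (chr17:16804958-16805533) at 81.4 and 86.4. With 73.1% and 62.2% of masked bases, the Il7 and Rgmb sites are repeat members.

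All 5 of the strongest K20R-restricted members were repeat members, against 2 of the 5 WT-restricted ones. The first lay inside Grik2, the gene of a kainate receptor subunit (chr10:49417001-49417896), with percentiles of 91.1 and 83.7 in K20R and no peak in WT, and is a copy of family 1, printed above. So is the site between Tbl1xr1 and Naaladl2 (chr3:22411519-22412938), at 86.7 and 83.2. The site between Mpdz and the transcription factor gene Nfib (chr4:81809098-81809731) is a copy of family 3 and stood at 64.5 and 73.0. A copy of family 4 between Nxph1, which encodes a ligand of neurexins, and Ndufa4 (chr6:10091100-10092567) stood at 58.5 and 70.8, and a site in no large family between Ptprd and Tyrp1 (chr4:79720151-79721399) at 58.5 and 70.4. At all 5 sites, peak numbers were missing at the absent peak in at least 1 WT list.

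The largest falls among common members were at mostly unmasked sites. Between Serpinb8 and the cadherin gene Cdh7 (chr1:108181052-108182326) the percentiles were 91.8 and 95.03 for WT against 11.2 and 34.2 for K20R, and the −log10 q of the summit was 55.8 and 109 against 1.92 and 9.60. Between Slc10a2 and Efnb2, the gene of an ephrin ligand (chr8:8131444-8133563), they were 86.6 and 87.1 for WT against 6.56 and 7.87 for K20R. Between the adhesion receptor genes Adgrl2 and Adgrl4 (chr3:150351799-150353152) the values were 80.8 and 88.0 against 24.6 and 6.94. Inside Ryr2, which encodes the calcium release channel of heart muscle (chr13:11781104-11781852), they were 89.3 and 92.6 against 35.2 and 36.4. At most 13.4% of the window was masked at these 4 sites, and none of the 20 members with the largest fall was a repeat member.

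The largest rises were at repeat members of families 1 and 3. Between Rgs17 and Oprm1, the gene of the mu opioid receptor (chr10:6349101-6350162), the percentiles were 11.4 and 14.1 for WT against 75.5 and 72.8 for K20R. Between Kcnv1 and Csmd3 (chr15:47561961-47562929) they were 6.36 and 20.97 for WT against 69.5 and 76.9 for K20R, and both sites are copies of family 3. The copies of family 1 between Cntn5, which encodes a contactin of neuronal membranes, and Jrkl (chr9:11440949-11441873) and inside Naaladl2 (chr3:24150908-24152082) rose from 38.4 and 27.2 to 81.3 and 81.5 and from 16.6 and 27.2 to 74.3 and 77.5. The WT peaks were weak, with a −log10 q of 1.93 and 3.39 at the Rgs17 site and 1.39 and 4.78 at the Kcnv1 site. It was 5.99 and 6.29 at the Cntn5 site and 2.52 and 6.29 in Naaladl2. Of the 20 members with the largest rise, 12 were repeat members, and the same 20 included 12 family copies. These members were chosen by the size of their change, so the values are a description.

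The members farthest from any coding TSS lay in the deserts between the protocadherin genes Pcdh20 and Pcdh9 and between Tenm3, which encodes a teneurin of neuronal membranes, and Aga. The farthest, at 2410 kb (chr14:91477895-91479003), is a copy of family 1 with percentiles of 16.6 and 14.1 for WT against 41.0 and 63.3 for K20R. In the Tenm3 to Aga desert a copy of family 1 at 2386 kb (chr8:51125290-51126131) stood at 26.3 and 42.5 for WT against 50.8 and 65.96 for K20R. A second site there, at 2242 kb (chr8:50915114-50917180) and 0.369 kb from the TSS of the non-coding gene C130073E24Rik, is unmasked and stood at 76.0 and 77.4 for WT against 73.5 and 68.2 for K20R. A copy of family 2 at 2233 kb in the Pcdh20 to Pcdh9 desert (chr14:91655957-91656452) had no peak in WT 1 and stood at 24.1 in WT 2, 35.2 in K20R 1 and 40.4 in K20R 2.

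The gaps with the most members are given by their flanking genes, and the counts are of members with a peak. Between Sox9, the transcription factor gene of cartilage and testis, and Slc39a11 lay 24 members, with peaks at 19 and 18 of them in WT and at 7 and 10 in K20R. Of these, 7 were WT-restricted and 2 K20R-restricted. The gap from Rad51b to Zfp36l1 held 23 members, with 16 and 19 peaks in WT and 10 and 12 in K20R. From Rps24 to Zmiz1 there were 23, with 14 and 18 against 7 and 8, and from Lrmda to Kcnma1 22, with 12 and 19 against 7 and 6. From Tmem182 to Pou3f3, a transcription factor gene of the developing brain, there were 21, with 10 and 18 against 4 and 9, tied with the gap from Ptprn2 to Rapgef5, with 19 and 19 against 15 and 16. In each of these 6 gaps both K20R libraries had fewer members with a peak than both WT libraries. The same held over all 891 gaps together, with 1870 and 2356 members in WT against 1375 and 1680 in K20R. The next gap in order, from Vrk1 to 3110018I06Rik, had 16 and 17 in WT against 16 and 15 in K20R. How many single gaps showed this order was not counted, so the 6 gaps have no background share. Gaps were ranked by merged members, and more members were WT-restricted (453) than K20R-restricted (91), so this ranking favours gaps with more WT peaks.

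**Figure D5:**
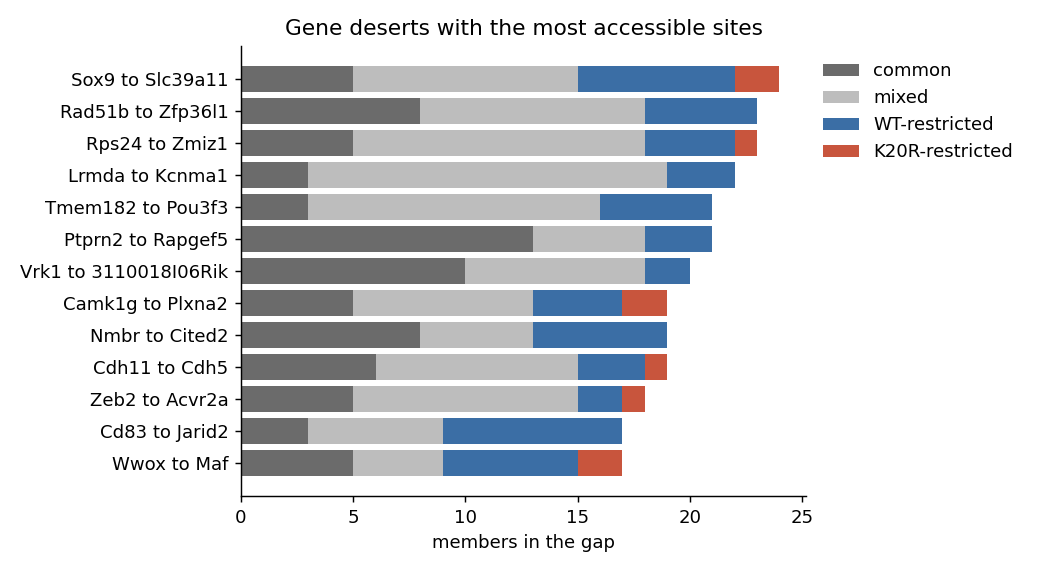
Number of members (x axis) in the 13 gaps between protein-coding TSSs with the most members, named by the flanking genes, split into common members (dark grey), mixed ones (light grey), WT-restricted (blue) and K20R-restricted (red) ones. The Sox9 to Slc39a11 gap holds 24 members, 7 of them WT-restricted, and the Cd83 to Jarid2 gap holds 17, of which 8 were WT-restricted and none K20R-restricted.

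Other gaps are named after their values were seen. From Cd83 to Jarid2, the gene of a Polycomb complex subunit, 17 members had 13 and 15 peaks in WT and 3 and 5 in K20R. The gap from Hace1 to Grik2 held 13 members in 3.71 Mb of eligible sequence, with a peak at 1 of them in WT 1, 10 in WT 2, 12 in K20R 1 and 9 in K20R 2. There the WT libraries stood farther from each other than WT 2 from either K20R library.

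Gaps were also grouped by lists of flanking genes, which were chosen with earlier results of these data known. Of 145 developmental transcription factor genes, 75 flank a gap, and their 91 gaps held 503 members at 10.1 per Mb. Of 86 neuronal adhesion and synapse genes 78 do, and their 130 gaps held 453 members at 2.90 per Mb. Secreted signals and receptors flank 50 gaps with 163 members at 4.195 per Mb, where all gaps together gave 5.35. Around transcription factor genes, 334 and 408 members had a peak for WT against 216 and 269 for K20R, with no overlap, and 91 (18.1%) were WT-restricted and 13 (2.58%) K20R-restricted. These shares lie near those over all members, 15.7% and 3.16%, where the autosomes gave 10.4% and 3.10%. Members around signals had 106 and 141 for WT against 69 and 85 for K20R, with 34 (20.9%) WT-restricted and 2 (1.23%) K20R-restricted.

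Around neuronal adhesion and synapse genes, 263 and 364 members had a peak in the WT lists and 249 and 301 in those of K20R, so the genotypes overlapped. Of these members 46 (10.2%) were WT-restricted and 25 (5.52%) K20R-restricted, beside 15.7% and 3.16% of all members and 10.4% and 3.10% of the autosomal regions. Repeat members made up 15.7% of them, against 2.58% around transcription factor genes and 6.75% around signals. Without repeat members, 45 (11.8%) were WT-restricted and 16 (4.19%) K20R-restricted around adhesion genes, and 89 (18.2%) and 12 (2.45%) around transcription factor genes. The difference between the lists was not tested, nor was the part of distance, gap length and base composition in it.

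The CTCF consensus was found within 100 bp of the summit in 189 members (6.56%), against 6.63% of regions 50 to 250 kb from a TSS, 6.0% of all autosomal regions and 0.104% of windows 2 kb from the members' summits. It was in 8.85% of the common, 3.31% of the WT-restricted and 2.2% (2 of 91) of the K20R-restricted members. Over all autosomal regions these classes gave 7.11%, 2.58% and 4.01%, and at 50 to 250 kb from a TSS 9.62%, 2.42% and 4.98%. The 3 printed sites stood at percentiles of 77.3 and 84.3 for WT against 79.1 and 77.5 for K20R for the site between Bckdhb and Gm11114 (chr9:84253164-84254158), and at 71.9 and 75.8 for WT against 71.8 and 84.1 for K20R for that between Vrk2 and Gm6685 (chr11:27753526-27755331). The site between Slc8a1, a sodium-calcium exchanger gene, and Pkdcc (chr17:82857073-82858203) stood at 70.1 and 73.9 for WT against 77.3 and 74.1 for K20R. The genotypes overlapped at the first and the second of these sites. Of 84 common members with the consensus, 14 (16.7%) were lower and 25 (29.8%) higher in both K20R libraries on the re-ranked scale, against 31.1% and 33.3% of the 865 without it. All autosomal common regions with the consensus gave 18.1% and 30.7%. Only 2 of the 252 repeat members (0.794%) held the consensus, against 7.12% of the other members.

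Other words were searched on both strands in the same windows. The SOX word was in 5.76% of the members against 3.00% of all autosomal regions, and the octamer ATGCAAAT, bound by POU factors, in 3.54% against 1.82%. Regions 50 to 250 kb from a TSS held them in 3.92% and 2.50%. In windows 2 kb from the members' summits the shares were 3.19% and 1.42%. Among repeat members the SOX word was in 17.5%, and among other members in 4.64%. Of the 166 members with this word, 38 are copies of family 1, whose printed runs hold it in their shared letters. WT-restricted members held the FOX word in 8.61%, against 3.69% of common members, the GATA word AGATAAG in 5.74% against 2.11%, the TEAD word ACATTCC in 6.84% against 3.90% and the T-box word TCACACCT in 2.87% against 0.527%. All autosomal regions of these classes gave the same order, with 6.74% against 2.55% for FOX, 6.11% against 1.63% for GATA, 4.75% against 2.97% for TEAD and 2.88% against 0.814% for T-box, so it was not particular to deserts. In the members the T-box shares rest on 13 of 453 and 5 of 949 members. Windows 2 kb from the members' summits held FOX in 2.88%, GATA in 2.81%, TEAD in 2.92% and T-box in 0.868%. Over all members the shares were 4.72%, 2.71%, 4.76% and 1.32%, so GATA was not above these windows. TCF-LEF (CTTTGAT) stood at 3.97% and 4.21% and AP-1 (TGACTCA) at 6.40% and 4.11% of WT-restricted and common members, and the E-box at 18.1% and 18.9%. Words were matched without mismatches, and some windows hold more than 1 of them.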

How the data were processed

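ATAC-seq was performed on 2 WT and 2 CTCF-K20R libraries, grouped by the genotype in the labels. According to the submitters' processing notes and the methods of the study, Trim Galore, Bowtie2 (mm10), MACS2 and deepTools were used, and reads of low mapping quality, duplicates and blacklisted reads were removed. Peak lists were used as deposited, 1 for each library. The authors give for each peak a score, a fold ratio over the local background, a −log10 p and a −log10 q of the summit. Ranks were taken on the deposited −log10 p within each list, which itself depends on the unknown depth. Ranks by q or fold were not tried. A list can lack a weak or removed peak, which lowers every count of shared regions.

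Protein-coding TSSs (45078 of 21840 genes) came from GENCODE vM21, and sequence and repeat masking from the reference of the same build. Python 3.11.15, pandas 2.3.3, scipy 1.17.1 and BLAST+ 2.17.0 were used, and the counting was tested on simulated lists. The smallest p of the permutation test is 0.333, and p-values cover only the spread between these libraries. The members, lists and motifs were chosen with earlier results of these data known. Named regions were the 5 strongest common members, the 5 strongest of each restricted class, the 4 largest re-ranked falls and rises, the 4 farthest members and the 5 fullest gaps. Of the strongest common members, 2 are not reported here. Alternatives covered distance, TSS set, gene bodies, q threshold, list length, summit tolerance, chromosomes, libraries, pairing, missing numbers, re-ranking, motif window and mismatch, and repeat content.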

Additional observations from a re-analysis of the deposited data

Results flagged for a closer look

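The X chromosome is outside the autosomal rule, and it held 46 regions over 250 kb from every protein-coding TSS. They are given because no comparison above used them. Of these 46 regions, 16 had a peak in all 4 libraries, 2 were WT-restricted and 4 K20R-restricted. With so few regions the difference between the genotypes was not tested.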

How the results depend on the processing

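Every value below is the WT minus K20R difference, or the log2 ratio of WT-restricted to K20R-restricted members, unless stated. The log2 difference in desert peaks (0.464) was 0.140 with the same number of strongest peaks and −0.210 for repeat members alone. The desert share (0.510 points) was 1.84 beyond 100 kb, 0.0430 beyond 500 kb, 0.0145 with the TSSs of every gene and −0.102 for repeat members alone. The restricted ratio (2.32) was 1.81 beyond 500 kb, and 1.74 and 1.79 at a −log10 q of at least 10 and 5. It was 0.743 with the same number of strongest peaks, 2.81 without repeat members and −1.49 for them alone. Where no peak number was missing it was 4.52, on 46 and 2 members. The same rule gave 2.74 at 50 to 250 kb from a TSS and 2.01 over all autosomal regions. The rule checks K20R-restricted regions in the WT lists, which kept 51.7% and 50.5% of their numbers, against 58.6% and 60.8% in K20R. WT-restricted and K20R-restricted regions are thus not treated alike. The rank of common members (4.23 points) was 8.67 with every TSS, −0.902 beyond 500 kb, −0.371 re-ranked and −15.0 for repeat members. The CTCF share (6.56%) was 21.4% with 1 mismatch and 4.86% in a window of 50 bp on each side. The K20R minus WT rank of repeat members (15.0) was 2.02 outside the families and 6.18 where every list had a −log10 q of 10 or more. Leaving out a library gave 0.301 to 0.627, 0.308 to 0.712, 1.04 to 2.86, 0.876 to 8.02 and, for the repeat members, 10.3 to 19.8. Apart from fewer regions or libraries in each, the cause of these changes was not tested. The repeat settings and the strength weighting were chosen after seeing the data.

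The labels give the genotypes the same replicate numbers. On the re-ranked scale, deviations of same-numbered libraries from their genotype means correlated at 0.0468 over common members and 0.0398 over autosomal common regions. Re-ranking takes out a shift of a whole list, so these values cannot show one. In each genotype the second library had the longer list. Its median fold over autosomal peaks was 5.83 against 4.65 in WT, and 6.02 against 4.70 in K20R. Whether same-numbered libraries share a batch or a depth was not tested. With the replicate number as a block the differences were 0.464, 0.510, 4.23 and 15.0, each with an exact sign-flip p = 0.500, the smallest that 2 pairs allow.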
